A study of Mus musculus with 20 samples.

Results

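Immune cells from the brown fat between the shoulder blades of mice (interscapular brown adipose tissue, iBAT) were compared between cold and room temperature in 8 single-cell RNA-seq libraries of the 20 in the series. The members were chosen by label: the 4 COLD Lin+ libraries and the 4 RT Lin+ libraries, paired within 4 experiments, which were C57 replicate 1, C57 replicate 2, Adrb1 WT and Adrb1 KO. Lin+ cells are those of the stromal vascular fraction that were held back on magnetic beads by antibodies against lineage markers of blood cells, among them Ter-119 on red cells, so the beads also set which cell types were captured and in what shares. RT mice were kept at room temperature, and COLD mice spent 4 days at 6 °C, housed singly in an incubator without nesting material. The C57 libraries came from male C57BL/6J mice. The Adrb1 libraries came from female mice labelled Adrb1 fl/fl, with Pdgfra-CreER -/- as WT and Pdgfra-CreER +/- as KO, and all of these had received tamoxifen. The Cre is driven by Pdgfra, a gene of stromal progenitors, so the beta-1 adrenergic receptor gene Adrb1 was not targeted in immune cells. All mice were 8 to 14 weeks old, and each library pooled 3 to 4 of them, so the pool is the replicate.

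The kit changed with temperature in the Adrb1 line. Both C57 experiments and the cold Adrb1 libraries were made with version 2 of the 10x kit, and the RT Adrb1 libraries with version 3. By the study's methods, collection day changed with treatment in that line as well. In the Adrb1 line kit, day and temperature cannot be told apart, whereas the C57 values are within a single kit version, and they are given beside main results for that reason.

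Brown fat burns fuel to make heat, and sustained cold makes the tissue grow by recruiting new adipocytes. Immune cells live among the fat cells: resident macrophages, dendritic cells that carry antigen, T and B lymphocytes, and monocytes and neutrophils that arrive from blood. Macrophages that clear dead adipocytes take up their lipid, and such lipid-associated macrophages are known for the receptors Trem2 and Gpnmb, for the secreted protein Spp1 (osteopontin) and for a large lysosomal compartment. Type I interferon switches on a separate set of antiviral genes through an enhancer element in their promoters.

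Of 50941 barcodes in the 8 files, 46358 had under 10% mitochondrial counts, under 15000 counts and under 4000 genes and were kept, 2424 to 10250 per library. Erythroid cells, defined by at least 20% of a cell's counts in the globin genes Hba-a1 and Hbb-bs, were then set aside, which left 41313 cells, 14618 from RT and 26695 from cold. Their summed counts ran from 9152154 to 13544933 per RT library and from 15248125 to 40227759 per cold library, so the cold values rest on more counts. Any pair of libraries shared at most 138 cell barcodes. Ptprc, the gene of the pan-leukocyte antigen CD45, was present in every library at 360 to 1438 CPM (counts scaled to the same total in each library). Adrb1 itself had 45, 48, 47 and 53 counts in the RT libraries of C57 replicate 1, C57 replicate 2, Adrb1 WT and Adrb1 KO and 27, 29, 28 and 25 in their cold libraries, so the library labelled KO held no fewer than the others at RT. Because counts were summed over the cells of a library, fewer cells of a type and less RNA per cell cannot be told apart in those sums.

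Erythroid cells made up more of the fraction in the cold. Their share of kept cells was 5.83%, 6.32%, 4.70% and 5.53% at RT in C57 replicate 1, C57 replicate 2, Adrb1 WT and Adrb1 KO, and 7.78%, 10.3%, 15.2% and 24.5% in the cold in the same order. Every cold library lay above every RT library, and the means were 5.60% ± 0.678 (SD, n = 4) and 14.4% ± 7.36 (SD, n = 4). The difference of 8.84 percentage points had p = 0.0286 in a two-sided exact permutation test of 4 against 4, the smallest value that design allows, and the exact sign-flip test over the 4 pairs gave its smallest possible p of 0.125. Within C57 alone the difference was 2.97 points. Without the Adrb1 KO pair it was 5.47 points.

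Dendritic-like and monocyte-like cells made up more, and B-like and neutrophil-like cells less, of the cold libraries. A class is a set of clusters named from marker genes, hence the ending. Within C57 the rise of monocyte-like cells came from the cluster led by Dmkn, described below, while the other monocyte-like clusters held fewer cells in the cold. The study gives Clec4e, Ifit3 and Rsad2 as genes of its cold-induced macrophage cluster MAC3. Clec4e was also among the leading genes of the Dmkn cluster. With finer clusters, 1364 cells led by Cxcl10, Rsad2 and Ifit3 stayed unnamed. The split of monocyte-like from macrophage-like cells, and with it both shares, is therefore uncertain. Dendritic-like cells were 9.11%, 7.47%, 2.84% and 2.27% of non-erythroid cells at RT and 35.9%, 34.8%, 23.2% and 12.97% in the cold. All 4 cold libraries lay above all 4 RT libraries. On the log2 scale the share was 2.43 higher (SE 0.44, edgeR adjusted p = 3.18e-05), from a mean of 5.42% ± 3.38 to 26.7% ± 10.8 (SD, n = 4 each). Over the upper limits this class had 4, 6, 33 and 56 cells at RT and 54, 35, 70 and 73 in the cold. The RT Adrb1 WT and KO libraries kept 92 and 52, so the limits lowered their shares most. With cells over the limits kept, the log2 difference was 2.11 (edgeR adjusted p = 0.000241). Monocyte-like cells went from 10.7%, 8.19%, 10.5% and 7.47% to 17.3%, 10.3%, 32.3% and 24.95%, higher in each of 4 pairs but overlapping between the groups (log2 difference 1.09, SE 0.42, edgeR adjusted p = 0.0414). That call was lost with finer clusters (adjusted p = 0.243 with edgeR), without the pairing by experiment (0.0604) and with cells over the upper limits kept (0.0590). It was also lost without C57 replicate 1 (0.0536), without Adrb1 WT (0.214) and without Adrb1 KO (0.0709).

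B-like cells made up 26.5%, 29.4%, 27.7% and 25.1% of the RT libraries and 5.63%, 11.4%, 9.47% and 15.8% of the cold ones. The groups did not overlap, and the share fell by 1.46 on the log2 scale (SE 0.42, edgeR adjusted p = 0.00594). The call was lost without C57 replicate 1 (adjusted p = 0.0536 with edgeR) and without Adrb1 WT (0.0872). Neutrophil-like cells fell by 1.58 (SE 0.45, adjusted p = 0.00594 from the same edgeR fit), from 3.65%, 2.31%, 12.1% and 8.73% to 0.277%, 1.89%, 3.28% and 5.12%, with overlap between the groups. That call was lost without the pairing by experiment (adjusted p = 0.163 with edgeR), without Adrb1 WT (0.0872), without Adrb1 KO (0.0709) and without C57 replicate 1 (0.129), where the log2 difference was -0.99. T-like cells were 13.8%, 18.0%, 22.9% and 31.2% at RT and 5.87%, 9.71%, 11.4% and 20.2% in the cold. They were lower in 4 of 4 pairs and did not pass (log2 difference -0.94, edgeR adjusted p = 0.0646). Macrophage-like cells, at 17.1%, 15.99%, 5.80% and 11.3% against 26.8%, 22.8%, 9.33% and 6.65%, were higher in 3 of 4 pairs and lower in the Adrb1 KO pair (log2 difference 0.28, edgeR adjusted p = 0.551). In all, 4 of 12 classes passed, 33.3% of those tested. With exact permutation tests on the same shares none did, and the smallest adjusted p was 0.0857. In C57 alone none passed by edgeR either, and the log2 difference of dendritic-like cells there was 2.10 (adjusted p = 0.0777).

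**Figure D1:**
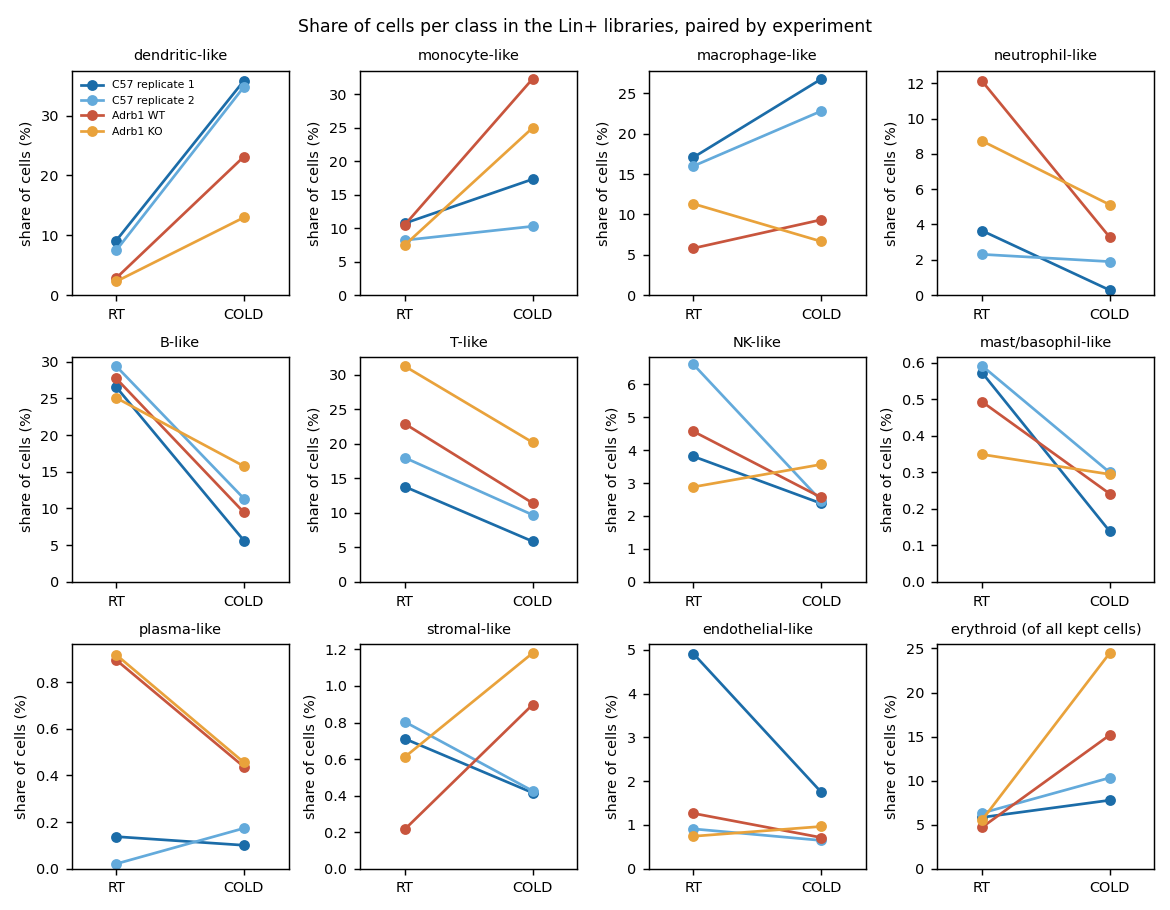
Share of non-erythroid cells in each class, in percent, with 1 point per library, RT beside COLD, and lines that join the libraries of an experiment. Dendritic-like cells ran from 2.27% to 9.11% at RT and from 12.97% to 35.9% in the cold, while B-like cells ran from 25.1% to 29.4% and from 5.63% to 15.8%.

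Several classes were filled from different clusters at the 2 temperatures, as the cells of single clusters show. A monocyte-like cluster led by Dmkn, Chil3, Vcan and Cxcl10 held 14, 18, 4 and 3 cells of the RT libraries and 1103, 431, 2064 and 562 of the cold ones. The monocyte-like clusters led by Gm9733, by Ace and by Slc12a2 held 221, 227 and 5 cells of RT C57 replicate 1 and 194, 75 and 0 in the cold. In C57 replicate 2 they held 225, 140 and 4 at RT and 156, 63 and 0 in the cold. Among macrophage-like cells, the cluster led by Ms4a7, Apoe and Trem2 held 3, 9, 1 and 3 RT cells and 1239, 905, 82 and 31 cold cells. The cluster led by Gpnmb, Ctsk and Fabp5 held 12, 14, 14 and 9 RT cells and 779, 496, 584 and 96 cold cells. The reverse held for the cluster led by Lilra5, Mgl2 and Slco2b1, which contained 585, 663, 117 and 192 RT cells and 42, 20, 111 and 101 cold cells. Genes that move with temperature enter the clustering, so these numbers describe the clusters and were not tested. The RT Adrb1 libraries also formed clusters of their own: a B-like cluster led by Pax5 held 869 of the 898 B-like cells of RT Adrb1 WT and 544 of the 574 of RT Adrb1 KO, but at most 7 of any other library. T-like clusters led by Sidt1 and by Lef1 held 433 and 280 cells of RT Adrb1 WT and 416 and 246 of RT Adrb1 KO, but at most 1 of any other library. Neutrophil-like, NK-like and monocyte-like clusters led by S100a9, Prf1 and Slc12a2 were also filled mainly by these 2 libraries. The part of this in the changes within classes was not tested.

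Summed over non-erythroid cells, 12855 genes passed the filter on low counts, and 5902 changed at an adjusted p under 0.05 by edgeR's quasi-likelihood test with Benjamini-Hochberg adjustment. In the cold 3019 rose, 23.5% of genes tested, and 2883 fell, 22.4%. Without the Adrb1 WT pair the count was 2884, and without the Adrb1 KO pair 3733. The 4 cold libraries lay above the 4 RT libraries for 2836 genes (22.1%) and below them for 2585 (20.1%), and 2437 of the risen and 2223 of the fallen genes were among these. Within C57, 3116 genes rose (24.2%) and 3354 fell (26.1%). Of the 3019 risen genes 2607 also rose within C57, as did 2283 of the 2883 fallen genes in their direction. The median log2 fold change over all genes tested was -0.03.

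Of the 12 genes with the largest rises 6 belong to the list of lipid-associated macrophages: Gpnmb, Spp1, Fabp5, Mmp12, Ctsk and Atp6v0d2. That list was chosen with earlier results of these data known, so this count is a description and not a test. Gpnmb, a transmembrane glycoprotein of phagocytes, stood at 11.2, 4.24, 1.11 and 1.56 CPM in the RT libraries of C57 replicate 1, C57 replicate 2, Adrb1 WT and Adrb1 KO and at 771, 794, 275 and 149 CPM in the cold. Its lowest cold library was over its highest RT library by a wide margin, and the fitted log2 fold change was 7.01 (SE 0.41, edgeR adjusted p = 0.00265). Spp1, a secreted ligand of integrins and CD44, went from 21.1, 20.6, 5.30 and 4.50 CPM to 1061, 884, 1416 and 974 CPM. Its log2 fold change was 6.69 (SE 0.64, edgeR adjusted p = 0.00269), 5.54 within C57 and 7.92 within the Adrb1 line, and the difference between lines passed its own test (edgeR adjusted p = 0.000324). Syngr1 rose by 5.71 on the log2 scale (SE 0.23), from 0.836 to 2.62 CPM at RT to 29.4 to 151 CPM in the cold.

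Fabp5, which carries fatty acids inside cells, went from 195, 86.2, 72.9 and 45.2 CPM to 1822, 1675, 1518 and 698 CPM (log2 fold change 3.96, SE 0.30). Nr1h3, the oxysterol receptor LXR alpha, rose by 3.79, and Atp6v0d2, a proton pump subunit of macrophages and osteoclasts, by 3.61. The elastase gene Mmp12 rose by 3.89 and the cathepsin gene Ctsk by 3.88. Ccl7, a ligand that draws monocytes, went from 317, 243, 34.9 and 23.4 CPM to 790, 575, 1387 and 1122 CPM (3.35, SE 1.03). Its rise was 1.28 within C57 and 5.45 within the Adrb1 line, and its call was lost without Adrb1 WT and without Adrb1 KO (highest edgeR adjusted p over 15 alternatives 0.108). Dmkn (5.04), Ms4a6d (3.59) and the interferon-induced Ifit3 (3.33) complete the 12 largest rises, each with no overlap between the groups and each also past the test within C57 and within the Adrb1 line. Dmkn rose by 3.14 within C57 and by 7.08 within the Adrb1 line.

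The largest fall was that of Pax5, the transcription factor that sets B cell identity. It went from 53.0, 55.8, 120 and 111 CPM to 3.75, 7.65, 9.19 and 16.5 CPM, a fall of 3.28 on the log2 scale (SE 0.25, edgeR adjusted p = 0.00265). Retnla, a secreted protein of alternatively activated macrophages, went from 961, 1071, 2119 and 1052 CPM to 102, 164, 206 and 179 CPM (-2.97, SE 0.25). Cd163, the haemoglobin scavenger receptor, went from 74.1, 60.2, 43.5 and 65.5 CPM to 7.89, 5.76, 10.7 and 16.9 CPM (-2.65, SE 0.31). Each of these 3 separated the groups without overlap. Satb1 (-2.60) and Ets1 (-2.55), transcription factors of lymphocytes, fell with Cmah (-2.82), Ralgps2 (-2.64), Inpp4b (-2.53), Ripor2 (-2.51) and Cd55 (-2.42). The myeloid receptor gene Lilra5 (-2.63) and the neutrophil gelatinase gene Mmp9 (-2.42) were the remaining 2 of the 12 largest falls. Lilra5 fell by 4.43 within C57 and by 0.88 within the Adrb1 line, and its call was lost without C57 replicate 1, without C57 replicate 2 and without Adrb1 WT (highest edgeR adjusted p over 15 alternatives 0.09997). The share of B-like cells fell in the same libraries. Within B-like cells none of the 10 genes of the B cell list passed (median log2 fold change 0.10), where 0.165% of all genes tested did.

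**Figure D2:**
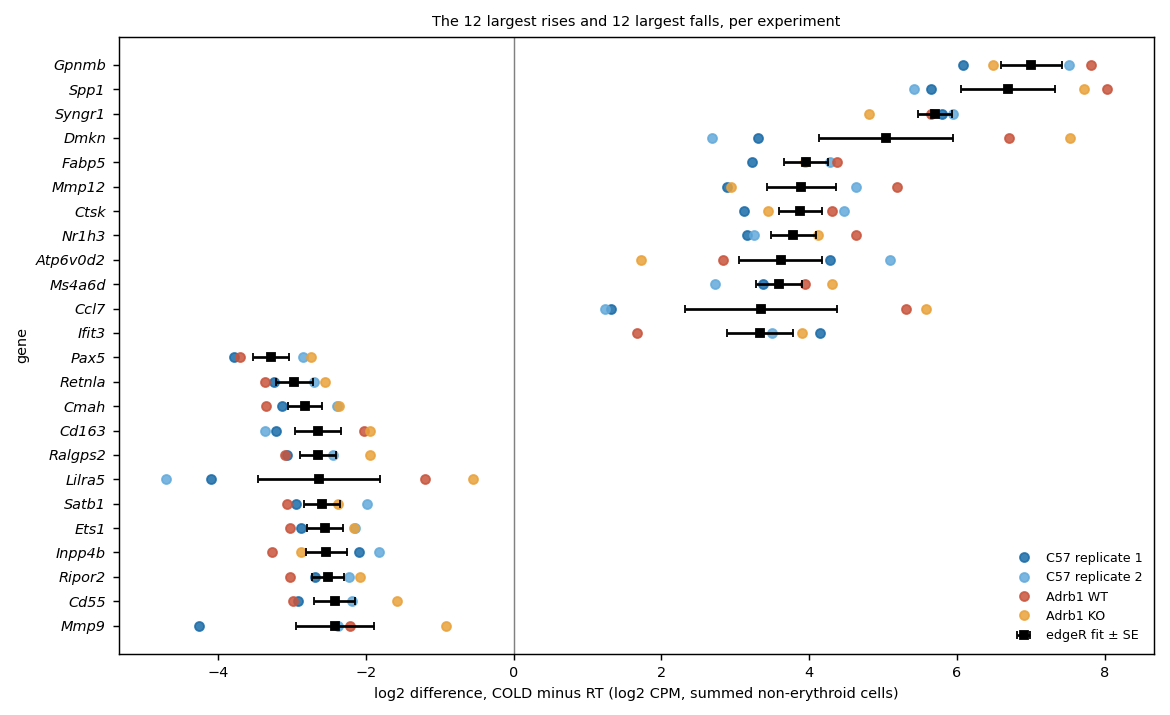
Difference in log2 CPM, cold minus RT (horizontal axis), of the 12 genes with the largest rise and the 12 with the largest fall over non-erythroid cells (vertical axis), with a coloured point per experiment and a black square with its SE for the edgeR fit. The genes were chosen to have the same sign in all experiments, and the fits run from -3.28 for Pax5 to 7.01 for Gpnmb.

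Of 20 genes of the lipid-associated macrophage list 17 rose and none fell, with a median log2 fold change of 2.98. For this and the later lists over non-erythroid cells, 23.5% of all genes tested rose and 22.4% fell. Within C57 24.2% rose and 26.1% fell, and within the Adrb1 line 34.2% rose and 31.9% fell. By the test of the difference, the response was higher in the Adrb1 line for 18.8% of genes and lower for 12.9%. The lists were chosen with earlier results of these data known, so their counts describe the lists and test nothing. Besides those above, the lipid receptor Trem2 went from 46.9, 47.6, 16.6 and 21.99 CPM to 475, 433, 150 and 105 CPM (2.99, SE 0.24, edgeR adjusted p = 0.00265). Lgals3, the lectin galectin-3, went from 915, 976, 434 and 346 CPM to 7554, 7030, 5623 and 3777 CPM (3.26, SE 0.31). Neither gene had a cold library within the RT range. The lipid droplet coat gene Plin2 rose by 3.22, the tetraspanin Cd63 by 2.14, the scavenger-receptor family member Cd5l by 3.48 and the acid lipase Lipa by 1.33. Apoe (0.56), Itgax (0.54) and Cd36 (0.55) did not pass. The summed level of the list was 3364 to 8508 CPM at RT and 13926 to 33488 CPM in the cold.

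Of 26 lysosomal genes 22 rose and none fell (median 1.42). The protease gene Ctsd went from 234, 265, 262 and 223 CPM to 2948, 2584, 1669 and 1083 CPM (2.97, SE 0.32, edgeR adjusted p = 0.00313). Ctsb rose by 2.41, Cd68 by 2.42, Ctss by 2.06 and the growth factor precursor Grn by 1.74. Tfeb, the transcription factor of lysosomal genes, was at 0.28 and did not pass. Of 17 genes of lipid handling 8 rose and 2 fell. Pparg, a lipid-sensing nuclear receptor, went from 29.1, 18.1, 17.7 and 13.9 CPM to 62.2, 48.5, 46.0 and 38.0 CPM (1.34, SE 0.14), and the scavenger receptor Msr1 rose by 2.37 and the cholesterol esterifying enzyme Soat1 by 1.25.

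The resident macrophage list went the other way: 9 of 19 genes fell and 1 rose (median -0.62), and within C57 13 fell and 1 rose (median -1.07). Mrc1, the mannose receptor CD206, went from 291, 214, 215 and 313 CPM to 116, 75.1, 83.0 and 60.3 CPM (-1.64, SE 0.23, edgeR adjusted p = 0.00473). The lectins Mgl2 (-1.38), Cd209f (-2.001) and Cd209g (-2.04) and the phosphatidylserine receptor Timd4 (-1.20) fell. Igf1 was the exception. It rose by 1.10, from 74.0, 69.9, 47.3 and 67.7 CPM to 246, 208, 105 and 61.9 CPM, and the Adrb1 KO pair did not share the rise. The call of Igf1 was lost in 4 of 15 alternatives. Folr2 (-0.14), Lyve1 (-0.14) and Pf4 (0.05) did not pass.

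Interferon-stimulated genes rose together. Of 29 tested 20 rose and none fell (median 1.98), and within C57 27 rose and 1 fell (median 1.80). Irf7, the factor that amplifies interferon production, went from 48.8, 64.7, 60.1 and 45.1 CPM to 491, 555, 225 and 521 CPM (2.97, SE 0.32, edgeR adjusted p = 0.00313). Isg15, a ubiquitin-like modifier, went from 126, 105, 87.9 and 59.7 CPM to 683, 564, 377 and 974 CPM (2.73, SE 0.37). Usp18, which removes it, rose by 3.23, Ifit1 by 3.00 and Rsad2 by 2.68. The cold Adrb1 WT library was the lowest of the cold libraries for these 5 genes, and it still lay above all RT libraries. Ifit3 (3.33) and its near-identical copy Ifit3b (3.14) may share reads, so their separate values are uncertain. Ifng, the gene of type II interferon, fell by 1.13, and Irf1, a factor it induces, fell by 1.28, from 148, 156, 187 and 222 CPM to 72.6, 72.8, 55.1 and 94.8 CPM. Stat2 (0.49) and Irf9 (0.32), factors that carry the type I signal, did not pass. Ifnb1, the gene of interferon beta, did not pass the filter on low counts and could not be tested.

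The interferon-stimulated response element, searched on both strands as GAAA, any 2 bases and GAAA, marks the promoters of many of these genes. The windows are shown as examples of list members that hold the element and rose. Each is a stretch of 60 bases from the 250 before the transcription start, read 5′ to 3′ on the strand of the gene from RefSeq on GRCm38.p6, with matches in capitals (a match on the other strand reads TTTC, any 2 bases and TTTC).
Ifit3, chr19:34583382-34583441, plus strand: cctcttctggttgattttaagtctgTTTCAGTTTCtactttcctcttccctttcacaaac
Ifit1, chr19:34640779-34640838, plus strand: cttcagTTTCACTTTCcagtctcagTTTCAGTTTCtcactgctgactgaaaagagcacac
Isg15, chr4:156200850-156200909, minus strand: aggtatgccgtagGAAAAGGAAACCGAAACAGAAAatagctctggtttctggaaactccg
Rsad2, chr12:26456538-26456597, minus strand: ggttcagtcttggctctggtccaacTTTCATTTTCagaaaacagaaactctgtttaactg
Cxcl10, chr5:92349068-92349127, minus strand: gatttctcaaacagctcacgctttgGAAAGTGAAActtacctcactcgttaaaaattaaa

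Within 250 bases before the start, 978 of 32851 promoters held a match (2.98%), and so did 349 of the 9869 tested genes with a promoter sequence (3.54%). In the interferon list 13 of 24 genes with a promoter did, 11 of the 17 that rose and 2 of the 7 that did not pass. Over all genes the share was 4.70% of those that rose (113 of 2405) and 2.73% of those that fell (59 of 2161). A match describes the letters and is not evidence of binding.

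Lysosomal genes are known for another element, TCACGTGA, a palindrome named the CLEAR element that Tfeb and its relatives recognise. Of 21 lysosomal genes with a promoter sequence 4 held it, 3 of the 17 that rose and 1 of the 4 others, against 0.785% of all promoters and 1.77% of genes tested. The shares among all risen and all fallen genes were 1.91% and 1.67%. Windows of 60 bases on the strand of the gene are shown for the 3 that rose, because they carry the element. Ctsk, the member with the largest rise of the list (3.88), held none within 250 bases before its start.
Ctsd, chr7:142387892-142387951, minus strand: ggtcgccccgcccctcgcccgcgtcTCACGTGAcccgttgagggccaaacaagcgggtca
Atp6v1a, chr16:44139357-44139416, minus strand: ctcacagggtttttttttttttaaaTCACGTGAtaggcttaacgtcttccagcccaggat
Ctsa, chr2:164833713-164833772, plus strand: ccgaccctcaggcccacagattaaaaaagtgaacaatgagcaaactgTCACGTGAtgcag
Of these, Ctsd rose by 2.97, Atp6v1a by 1.18 and Ctsa by 1.01.

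Chemokine ligands answered differently in the 2 lines. Over the 4 pairs 8 of 21 rose and none fell (median 0.57). Within C57 8 rose and 9 fell (median -0.28), and within the Adrb1 line 16 rose and none fell (median 1.62). The response was higher in the Adrb1 line for 20 of 21 by the test of the difference, where 18.8% of all genes tested were. Ccl2, the main ligand of Ccr2 on monocytes, went from 441 and 459 CPM to 1060 and 910 CPM in C57 (1.13, edgeR adjusted p = 0.001) and from 93.6 and 59.7 CPM to 2120 and 1904 CPM in the Adrb1 line (4.75). Ccl6 (1.49) and Ccl9 (2.43) rose without overlap over the 4 pairs, and both also rose within C57. Among receptors, Cxcr5, which guides B cells to follicles, fell by 1.78, and Cxcr2 of neutrophils fell by 2.06.

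Lists of the 2 monocyte subsets were read side by side, and no test compared them. Of 10 genes of classical monocytes 4 rose and 1 fell (median 1.40), against 4 and 3 within C57 (median 0.34) and 8 and 1 within the Adrb1 line (median 2.37): Chil3 went from 68.8, 173, 117 and 78.1 CPM to 406, 328, 1487 and 2235 CPM (3.02, SE 0.67, edgeR adjusted p = 0.0145), and Vcan (2.43), F10 (2.33) and Ms4a4c (2.29) rose. Ly6c2 (1.48) and Ccr2 (0.36), which define the subset, did not pass. Of 10 genes of nonclassical, patrolling monocytes 6 fell and none rose (median -0.78). Within C57 7 fell and 1 rose (median -1.015), and within the Adrb1 line 5 fell and 2 rose (median -0.51). The response was higher in the Adrb1 line for 5 of 10 and lower for none, where 18.8% of all genes tested were higher and 12.9% lower. In the Adrb1 KO pair the summed level of the list went up, from 916 to 1294 CPM. Ace went from 56.4, 38.5, 68.1 and 51.5 CPM to 10.5, 10.5, 24.3 and 34.3 CPM (-1.59, SE 0.30), and Itgal (-1.40) and Spn (-1.35) fell.

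In the sums, genes of 3 of the 4 dendritic cell lists rose more often than they fell. Of 10 genes each, 7 of conventional type 1 dendritic cells, 6 of type 2 and monocyte-derived ones and 6 of mature ones rose, and 0, 1 and 0 fell. Of 10 genes of plasmacytoid dendritic cells 2 rose and 3 fell (median -0.22). Their cells were nonetheless more numerous in the cold. The dendritic-like cluster led by Siglech, Klk1 and Ccr9 held 29, 26, 7 and 9 of 4359, 4728, 3241 and 2290 non-erythroid cells at RT. In the cold it held 146, 78, 123 and 40 of 7935, 6334, 8695 and 3731. These numbers were not tested. Xcr1, the receptor that defines type 1 cells, went from 22.4, 19.3, 5.16 and 4.24 CPM to 47.2, 58.8, 32.0 and 18.5 CPM (1.84, SE 0.27, edgeR adjusted p = 0.00528). The growth factor receptor Flt3 rose by 1.43, Naaa by 1.34 and the transcription factor Irf8 by 0.93. Within dendritic-like cells 1, 0 and 0 members of the 3 lists rose and 2, 1 and 2 fell.

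All 12 genes of the T cell list fell (median -1.19), and of 10 genes of regulatory and activated T cells 6 fell and 2 rose (median -0.83). Cd3e, a subunit of the T cell receptor complex, went from 37.0, 60.1, 56.2 and 70.7 CPM to 11.2, 16.5, 26.5 and 49.6 CPM (-1.29, SE 0.25, edgeR adjusted p = 0.00997), with the cold Adrb1 KO library inside the RT range. Lef1 (-2.18) and Tcf7 (-1.95), factors of naive T cells, fell as well. All 10 B cell genes fell (median -1.98), as did 8 of 12 cytotoxic genes. Within T-like cells none of the 12 T cell genes passed (median 0.39), where 0.612% of all genes tested rose and 0.732% fell. Il1rl1, the IL-33 receptor of type 2 innate lymphoid cells and mast cells, went from 26.1, 17.8, 22.99 and 18.3 CPM to 3.50, 3.34, 3.08 and 3.12 CPM (-2.69, SE 0.17, edgeR adjusted p = 0.00265), and Gata3 fell by 1.26. Macrophage-like cells also carried Il1rl1, with 135, 90, 67 and 91 counts at RT, and it fell within them too. No cluster was named as innate lymphoid. Of the 7 genes tested in the list of type 2 innate lymphoid cells Il1rl1, Gata3 and Rora (-1.18) fell, Rnf128 rose (3.01) and 3 did not pass (median -0.09).

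Secreted factors and cytokines did not share a direction. Of 15 inflammatory cytokine genes 6 rose and 1 fell, and within C57 4 rose and 4 fell. The anti-inflammatory Il10 went from 4.50, 2.20, 2.09 and 1.47 CPM to 20.7, 12.3, 20.6 and 19.6 CPM (2.89, SE 0.29, edgeR adjusted p = 0.00294), and the IL-1 antagonist Il1rn rose by 2.19 and Il18 by 1.85. Ptgs2, the inducible cyclooxygenase, fell by 0.92. Tnf (0.23), Il6 (-0.83) and Il1b (-0.52) did not pass. Among growth factors Gdf15, a stress-induced cytokine, went from 28.3, 10.8, 6.34 and 5.45 CPM to 176, 114, 100 and 46.9 CPM (3.27, SE 0.25), whereas Pdgfb fell by 1.02. Of the 17 genes of that list 6 rose and 2 fell. Of 11 inhibitory checkpoint genes 4 rose and 2 fell. Cd200r1 rose by 1.73 and Lgals9 by 1.61 without overlap, and Ctla4 of regulatory T cells fell by 1.05.

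Of 30 cell cycle genes 20 rose in the sums and none fell (median 1.22). Within dendritic-like cells 7 of 30 rose, where 5.56% of all genes tested did. In macrophage-like cells 1 of 20 rose, where 22.6% of all genes did. In monocyte-like cells 2 of 13 rose and 2 fell, where 19.1% of all genes rose and 20.2% fell. The counts in these last 2 classes are therefore no more than those of genes at large. In T-like and B-like cells none passed. The named clusters led by cell cycle genes such as Birc5 and Top2a were dendritic-like. An unnamed cluster of 276 cells also had Mki67 and Top2a among its leading genes, beside Gzmb and Klre1. With finer clusters, a macrophage-like cluster of 133 cells was led by Hmmr and Birc5. Cycling cells left unnamed do not enter the counts within classes. Birc5, a mitotic survivin, went from 36.5, 42.5, 9.41 and 9.44 CPM to 103, 121, 85.4 and 33.2 CPM (1.98, SE 0.31), with overlap, since the cold Adrb1 KO library lay inside the RT range. Cdk1 rose by 1.95, and Mki67 (0.16) did not pass. Top2a rose by 0.74, a call that was lost in 5 of 15 alternatives. Of 16 genes of glycolysis 8 rose and 1 fell (median 0.85). Pgam1 went from 84.2, 109, 73.3 and 61.6 CPM to 298, 321, 389 and 298 CPM (2.01, SE 0.21), and Ldha rose by 1.77 while Pdk1, which restrains entry of pyruvate into mitochondria, fell by 1.09. Of 15 genes of the unfolded protein and heat shock responses 9 rose and 1 fell, among them Sdf2l1 (2.49) and Pdia6 (1.84). Of 14 clock genes 11 fell and 1 rose (median -1.04). Arntl, the core clock activator BMAL1, went from 18.9, 12.2, 19.4 and 21.1 CPM to 7.20, 7.44, 7.35 and 8.95 CPM (-1.19, SE 0.17, edgeR adjusted p = 0.00525), and the repressor Bhlhe41 rose by 1.89. In the list of genes that dissociation induces, 1 of 18 rose and 1 fell (median -0.07).

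Genes of other cell types were measured beside these. The erythroid list, after erythroid cells had been set aside, summed to 261 to 1276 CPM at RT and 687 to 2342 CPM in the cold, higher in 4 of 4 pairs. Of 10 stromal genes none changed over the 4 pairs (282 to 891 CPM against 383 to 969 CPM), but the lines went opposite ways: 7 fell within C57 (median -1.02), 8 rose within the Adrb1 line (median 0.98), and 9 differed between the lines by the edgeR test. Of 10 endothelial genes 1 fell (120 to 417 CPM against 95.5 to 184 CPM), and 6 fell within C57. The brown adipocyte list summed to 121 to 2118 CPM at RT and 484 to 918 CPM in the cold, with Lep at 0 in every library. It was higher in the cold in 3 of 4 pairs and lower in C57 replicate 1, whose RT library gave the 2118 CPM. Of its 9 genes tested 3 rose and 1 fell. The part of these cells in the results was not tested.

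With the erythroid cells included, 3040 of 13156 genes rose (23.1%) and 2856 fell (21.7%), and 5787 of the calls were shared with the non-erythroid sums in the same direction, 98.1% of the calls in those sums and 98.2% of the calls with erythroid cells. Without the Adrb1 WT pair 2799 genes changed, and without the Adrb1 KO pair 3683.

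Within macrophage-like cells 2127 of 9418 genes rose (22.6%) and 2019 fell (21.4%), with a median log2 fold change of 0.02 over all of them. The clusters led by Ms4a7 and by Gpnmb held most of these cells in the cold and the one led by Lilra5 most at RT. Spp1 went from 13.4 ± 7.44 to 2513 ± 757 CPM (SD, n = 4 each; log2 fold change 7.55, SE 0.49, edgeR adjusted p = 0.000174) and Gpnmb from 19.4 ± 21.2 to 1719 ± 694 CPM (6.85, SE 0.52). Retnla fell by 4.64, and Pla2g2d (-5.22) and Il1rl1 (-4.31) fell too. Pdpn rested on 1 count at RT against 1395 in the cold, a pooled ratio of 375 (95% interval 67.1 to 14810, counting error only), and the coagulation factor gene F7 on 5 against 2442 (131, 56.1 to 404). Of the lists, 17 of 20 lipid-associated genes and 21 of 26 lysosomal genes rose with none falling. Of 19 resident genes 12 fell (median -1.71), and of 14 MHC class II genes 10 fell and 1 rose (median -1.62). Cd74, the invariant chain of MHC class II, went from 25566 ± 12302 to 6116 ± 5659 CPM (SD, n = 4 each; -2.35, SE 0.70, edgeR adjusted p = 0.0267) without overlap. The Adrb1 KO pair moved little, from 16697 to 14516 CPM, and the lowest RT library, Adrb1 WT, stood at 14831 CPM. Cd74 did not pass in monocyte-like (0.09) or dendritic-like cells (0.16). Whether those responses differ was not tested. The globin gene Hbb-bs rose in macrophage-like cells as well (3.75). Median counts per macrophage-like cell were 2770 and 3222 at RT and 5638 and 6011 in the cold in C57, and 4799 and 5105 against 4051 and 3976 in the Adrb1 line, and the part of depth was not tested.

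Within monocyte-like cells 1616 of 8461 genes rose (19.1%) and 1705 fell (20.2%), with a median of -0.02 over all of them. Without the Adrb1 WT pair 1878 genes changed and without the Adrb1 KO pair 2070, against 3321 with all pairs. The cluster led by Dmkn held most of these cells in the cold and clusters led by Gm9733, Ace or Slc12a2 most at RT. Spp1 rose by 9.08 (4.43 ± 5.12 to 2084 ± 662 CPM, SD, n = 4 each), Ccl7 by 8.03 and Ccl2 by 5.73. Gpnmb had 8 counts at RT and 5538 in the cold (pooled ratio 151, 95% interval 76.7 to 351). Chemokine ligands rose in 15 of 16 cases (median 3.32), interferon genes in 22 of 28 (median 1.58), and none of either list fell. Macrophage lists moved within the class as well: of 18 lipid-associated genes 14 rose and 1 fell (median 2.43), and of 12 resident macrophage genes 7 rose and 1 fell (median 1.12). Of 10 nonclassical genes 9 fell. Cxcl10, an interferon-induced ligand of Cxcr3, went from 46.2 ± 41.5 to 1007 ± 672 CPM (4.55, SE 0.70). S1pr5, which lets patrolling monocytes leave the marrow, fell by 3.00, and Slc12a2 (-3.95) fell as well.

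Within dendritic-like cells 539 of 9690 genes rose (5.56%) and 775 fell (8%), with a median of 0.01 over all of them. This count moved with the pairs used: without Adrb1 WT 326 genes changed, without Adrb1 KO 526 and without C57 replicate 1 696. The largest rises were globin genes, Hbb-bt (5.54) and Hbb-bs (4.81), followed by Mmp12, which went from 3.81 ± 1.74 to 96.3 ± 45.9 CPM (SD, n = 4 each; 4.78, SE 0.33, edgeR adjusted p = 0.000638). Of 29 interferon genes 20 rose and 1 fell (median 1.76). Irf7 went from 71.1 ± 24.4 to 489 ± 197 CPM (2.72, SE 0.24). Sterol synthesis genes fell in 12 of 20 cases and none rose (median -0.87). Of 10 genes of plasmacytoid dendritic cells 6 fell and none rose, although the cluster led by Siglech held more cells in the cold, as given above. A smaller part of the class and lower levels per cell cannot be told apart in these sums.

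**Figure D3:**
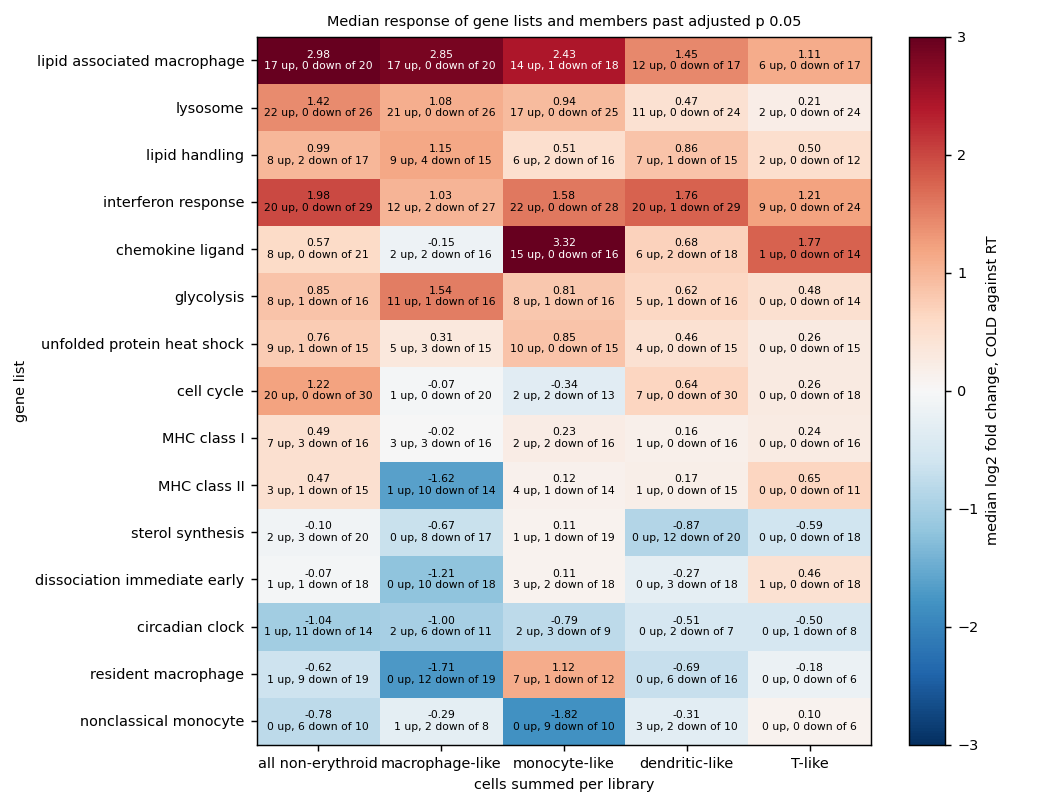
Median log2 fold change, cold against RT, of each gene list (rows) over all non-erythroid cells and within classes (columns), with the number of members that rose and fell of those tested, and colours that stop at 3 in either direction. In macrophage-like cells the lipid-associated list stood at 2.85 and the MHC class II list at -1.62, and in monocyte-like cells the chemokine list stood at 3.32.

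In the remaining classes few genes passed after adjustment. At an unadjusted edgeR p under 0.05 were 2636 of 8336 genes in T-like and 2459 of 7894 in B-like cells. In NK-like, neutrophil-like and endothelial-like cells 1192 of 4303, 555 of 2613 and 374 of 2975 were. The few adjusted calls therefore do not show that these classes did not respond. Within T-like cells 51 of 8336 genes rose (0.612%) and 61 fell (0.732%), with a median of 0.01 over all of them, and the rises included interferon genes, 9 of 24 (median 1.21): Ifit3 (2.46), Ifit1 (2.43) and Rsad2 (2.34). The inhibitory receptor gene Pdcd1 rose by 2.49, from 10.4 ± 6.93 to 61.6 ± 49.9 CPM (SD, n = 4 each). In NK-like cells 15 of 4303 genes changed (0.349%), with Itga2 (-2.37) and Nr4a3 (-2.05) among the falls and Plac8 (2.58) and Rtp4 (2.78) among the rises. In B-like cells 13 of 7894 changed (0.165%), Fabp5 (3.18) and Plin2 (2.90) among them. In neutrophil-like cells 3 of 2613 changed (0.115%), Rgs1 (3.14), Spp1 (2.62) and mt-Nd1 (2.10). Few counts lie behind the first 2. In C57 replicate 1, with 22 such cells in the cold, Rgs1 had 2 counts at RT and 1 in the cold, and Spp1 11 and 8. In endothelial-like cells, which could be tested in 6 libraries, 34 of 2975 changed (1.14%), and the rises were led by the myeloid genes Lgals3 (3.81) and Lyz2 (3.79). Without C57 replicate 2 the count was 795 in T-like, 92 in B-like and 635 in neutrophil-like cells, and without Adrb1 WT it was 18 in T-like and 5 in B-like cells. Without Adrb1 KO 11 genes changed in T-like cells and without C57 replicate 1 33, whereas 2 changed in B-like cells without C57 replicate 1 and 8 without Adrb1 KO. In endothelial-like cells the count was 300 without Adrb1 WT, and in NK-like cells it was 29 without C57 replicate 1 and 9 without C57 replicate 2.

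Spp1 was called higher in every immune class tested, with log2 fold changes of 4.48 in T-like, 3.89 in NK-like, 5.69 in B-like and 1.57 in dendritic-like cells besides those above. In B-like cells it had 7 counts at RT and 185 in the cold (pooled ratio 55.1, 95% interval 26.2 to 139), and 51.0 ± 19.98 CPM in the cold there is set against 2513 CPM in macrophage-like cells of the same libraries. The Spp1 sum of the libraries rose in the same 4 pairs, and Fabp5 (7.33 ± 3.83 to 64.6 ± 31.4 CPM in B-like cells, 3591 CPM in macrophage-like cells in the cold) and Gpnmb, listed at 0 in all RT libraries of B-like cells, were called there too. The part of cell-free RNA in the lymphocyte values was not tested.

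**Figure D4:**
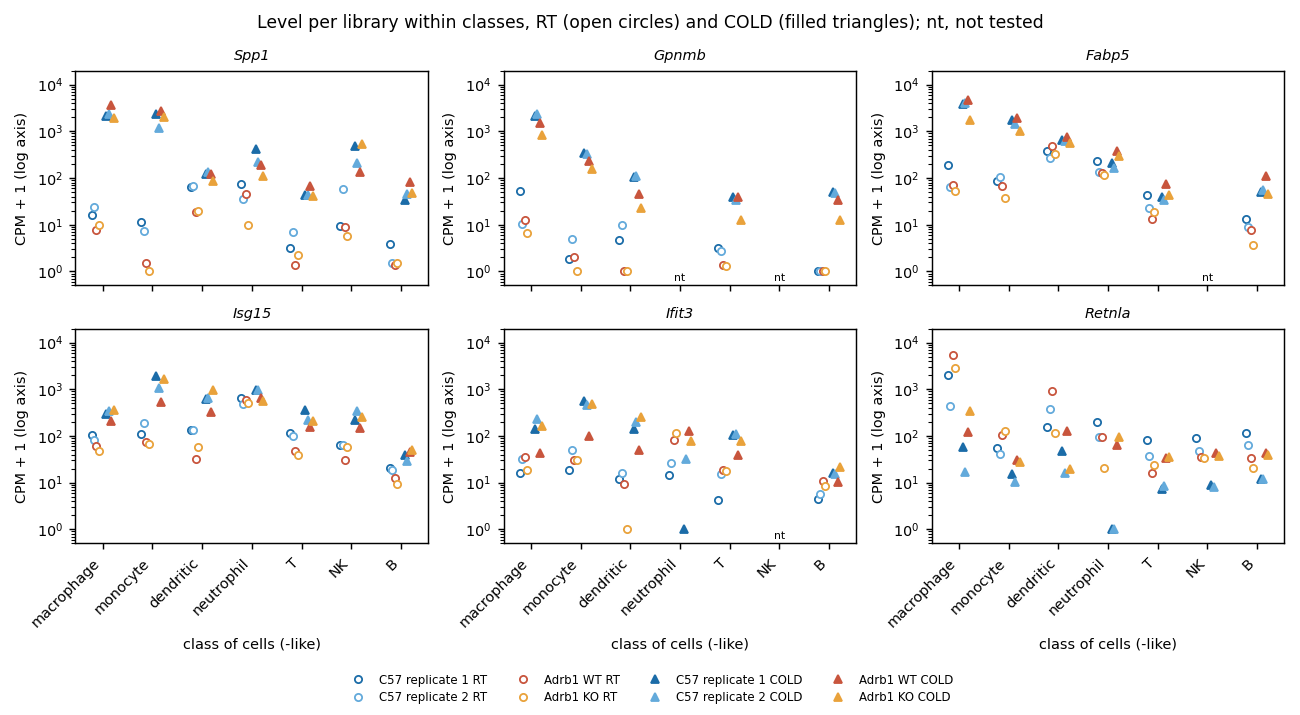
CPM plus 1 on a log axis (vertical) of Spp1, Gpnmb, Fabp5, Isg15, Ifit3 and Retnla in each library within 7 classes (horizontal), with open circles for RT, filled triangles for COLD, a colour per experiment and nt where a gene was not tested. In macrophage-like cells Spp1 went from 13.4 to 2513 CPM on average and Retnla from 2723 to 136 CPM.

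Within the Adrb1 line 4398 genes rose (34.2%) and 4106 fell (31.9%). Both lines rose for 2488 genes and fell for 2097, and 355 genes fell in C57 and rose in the Adrb1 line while 69 did the reverse. The response was higher in the Adrb1 line for 2419 genes (18.8%) and lower for 1661 (12.9%), by the edgeR test of the difference. Without C57 replicate 1 the sum of these was 1972 and without C57 replicate 2 1796, against 4080. Sex, strain, tamoxifen and kit differ between the lines, and kit and collection day differ between temperatures within the Adrb1 line, so none of these can be told apart.

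Among the genes that differed most, the RT Adrb1 libraries stood apart from the rest. Lars2, a mitochondrial leucyl-tRNA synthetase, stood at 522 and 644 CPM in the RT Adrb1 libraries and at 7.45 to 20.7 CPM in the other 6. AY036118 stood at 691 and 887 CPM there, against 34.1 to 102 CPM. Rpl27, a ribosomal protein gene, and Rps27rt were at 2.51 and 3.03 and at 34.98 and 43.98 CPM in those RT libraries, and at 18.9 to 110 and 103 to 925 CPM in the others. These RT Adrb1 libraries are the version 3 libraries. Rps27rt is a copy of Rps27, so its counts are uncertain. By contrast the lipid-associated list rose for 18 of 20 genes within each line (medians 3.10 in C57 and 2.47 in the Adrb1 line), and the lysosomal list for 24 and 23 of 26. MHC class II genes differed in 11 of 15 cases towards a higher response in the Adrb1 line and in 2 towards a lower one, and sterol synthesis genes in 14 of 20 with none lower.

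**Figure D5:**
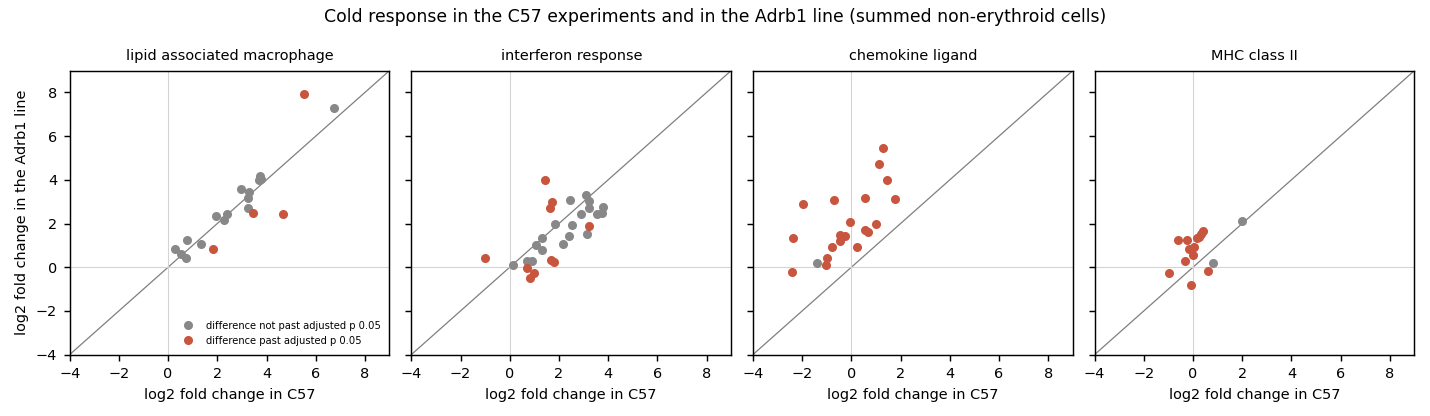
Log2 fold change, cold against RT, within C57 (horizontal axis) and within the Adrb1 line (vertical axis) for the members of 4 gene lists over non-erythroid cells, with the genes whose difference between lines passed the test in colour. Gpnmb lies near the diagonal (6.76 and 7.30), and Ccl2 lies above it (1.13 and 4.75).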

How the data were processed

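The authors prepared single-cell RNA-seq libraries from Lin+ cells, aligned reads with Cell Ranger 3.0.1 to mm10 per the labels and removed cell-free RNA with SoupX, taking Fabp4 and Car3 as genes not expressed. The deposited values are therefore expected counts, 97.6% to 99.5% of entries not whole, not scaled, for 31053 gene symbols. How reads of near-identical genes were counted is not given in the sources used here, and counts removed by SoupX lower the levels of genes abundant in free RNA.

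Cells under 10% mitochondrial counts, 15000 counts and 4000 genes were kept. Non-erythroid cells were clustered (scanpy 1.11.5, 2000 variable genes, 30 components, 20 neighbours, leidenalg 0.10.2 at resolution 1), which gave 41 clusters. A cluster needed 3 or more raised markers to be named; 28 were, and 13 with 2836 cells stayed unnamed. Doublet calling with scrublet marked at most 0.619% of a library, so no cell was removed by it, and leaving out the top 6% of scores was an alternative.

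Counts were summed per library, rounded and tested with edgeR 4.0.16 (TMM, filterByExpr, glmQLFit and glmQLFTest, two-sided, Benjamini-Hochberg adjustment over all genes tested of a comparison), with experiment as a block and temperature as the term. An adjusted p under 0.05 was called. A second fit had a term per line. Class shares were tested in the same way on numbers of cells with the non-erythroid total as offset. Genes were tested within classes of at least 20 cells in each of at least 6 libraries, which left out plasma-like, mast and basophil-like and stromal-like cells. The erythroid share was tested by exact permutation. Fold changes use the prior count of edgeR, which understates those of low genes, and levels are CPM, which are not compared between genes. On simulated counts with 200 changed genes, the block fit called 94% of genes changed by 2 and 44% of those changed by 1 on the log2 scale over non-erythroid cells (12717 genes tested), and 96% and 39% in macrophage-like cells (9242 genes).

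Samples with the same experiment label deviated together (correlations of 0.200, 0.314, 0.126 and 0.171, all over 0.1), but the cold Adrb1 KO library correlated best with RT Adrb1 WT. Centred within each line, the correlation was 0.372 in C57 and -0.013 in the Adrb1 line. No library was a copy of another: between libraries of a group, chi-square divided by its degrees of freedom was 8.90 to 224. P-values of the block fit measure the spread of the cold difference between the pairs, with dispersions partly shared over genes. That spread holds differences between the lines in their cold response as well as differences between pools.

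The 12 largest rises and falls over non-erythroid cells, and 5 of each within a class or between lines, were named among genes past the threshold with the same sign in all experiments and at least 20 CPM on average. Gm and Rik models, Fabp4, Car3 and receptor segments were left out. Other genes come from lists. The comparison, the lists and the alternatives were chosen with earlier results of these data known. Promoters are those of RefSeq on GRCm38.p6, matched by symbol. A few genes are not reported here.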

Additional observations from a re-analysis of the deposited data

Results flagged for a closer look

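A single library stood far from the other 3 of its group in 5 of 158 groups of 4 that were examined (3.17%), where chance gives about 1 in 20. The share of NK-like cells in the cold was 3.56% in Adrb1 KO and 2.38% to 2.56% in the others. The share of endothelial-like cells at RT was 4.91% in C57 replicate 1 and at most 1.27% in the others. The summed level of the brown adipocyte list at RT was 2118 CPM in the same C57 replicate 1 library and at most 455 CPM in the others. Retnla at RT was 2119 CPM in Adrb1 WT against at most 1071 CPM, and Inpp4b in the cold was 13.6 CPM in Adrb1 KO against at most 7.38 CPM.

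The cold response differed between the lines by edgeR's test of the difference for 10 genes named by the rule. It was higher in the Adrb1 line, on the log2 scale, by 7.48 for Camp, an antimicrobial peptide gene of neutrophils, by 5.94 for Rpl27, by 5.38 for Rps27rt, by 5.06 for Xist and by 4.70 for the metallothionein gene Mt2. It was lower, at -5.50 for Lars2, -3.50 for AY036118, -2.46 for Cep350, -2.44 for Lilrb4a and -2.39 for Syne1. Camp had 0.0866 CPM in the RT Adrb1 KO library and 3.90 CPM in RT Adrb1 WT. Xist is expressed in females only, and the C57 libraries, from males, held 0.375 CPM or less, so that its response in C57 rests on almost no counts. Kit version and collection day move with temperature in the Adrb1 line, and their part in these differences cannot be told apart.

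The share of stromal-like cells moved in opposite directions, lower in the cold in both C57 pairs and higher in both pairs of the Adrb1 line, and the difference of the 2 mean changes was 0.961 percentage points. It was not tested.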

How the results depend on the processing

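Over non-erythroid cells the count of 5902 changed genes was 5802 with no replicate block, of which 5305 were shared (89.9% of 5902), and 6457 by DESeq2. With C57 alone it was 7481. Leaving out a pair gave 2884 to 4922. With all cells it was 5896, and leaving out a pair gave 2799 to 4860. For the difference between lines leaving out a pair gave 1796 to 3556. Not every gene named over non-erythroid cells was run under the 15 alternatives; those that were kept their direction, and Atf4, Clock, Cxcl1, Cxcl2, H2-DMb1, H2-Ob, Hspa5, Igf1, Lilra5, Maf and Top2a were among those that lost their call in at least 3 of them.

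Counts within classes depended more on the setting. With no replicate block they were 2095 in dendritic-like, 62 in T-like, 191 in B-like and 5 in endothelial-like cells. With no filter on low counts they were 2480 in dendritic-like, 259 in neutrophil-like, 1664 in T-like, 503 in NK-like, 1400 in B-like and 107 in endothelial-like cells. DESeq2 gave 19 in neutrophil-like, 241 in T-like, 53 in NK-like, 135 in B-like and 12 in endothelial-like cells. With C57 alone they were 2028 in dendritic-like, 12 in neutrophil-like, 423 in T-like, 332 in NK-like, 93 in B-like and 300 in endothelial-like cells. The C57 term of a fit over all libraries, added after seeing the data, gave 58 in neutrophil-like, 407 in T-like, 344 in NK-like and 228 in B-like cells. Leaving out a pair gave 1878 to 3468 in monocyte-like, 326 to 1311 in dendritic-like, 0 to 635 in neutrophil-like, 11 to 795 in T-like, 9 to 29 in NK-like, 2 to 92 in B-like and 25 to 300 in endothelial-like cells. The cause of these moves was not tested.

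Of class shares, 4 passed, 2 with no replicate block, 2 in the Adrb1 line alone, 0 in C57 alone, 0 by exact permutation and 1 to 6 when a pair was left out. Among classes that had not passed, the log2 change had the other sign for unnamed cells at the finer resolution (0.61), for plasma-like cells in C57 alone (0.84), for stromal-like cells in C57 alone (-0.84) and for macrophage-like cells in the Adrb1 line alone (-0.038). Leaving out a pair moved plasma-like cells from -0.88 to 0.023 and stromal-like cells from -0.28 to 0.66. The erythroid difference was 2.97 points in C57 alone and 5.47 to 11.1 points when a pair was left out, where no p under 0.05 can be reached. Kit version and collection day limit the Adrb1 values and pooled mice limit the number of replicates.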

Other observations

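Some gene groups not described above showed no common direction over non-erythroid cells. Of 14 receptors and sensors of interferon 5 rose and 3 fell: Irf5 rose by 1.19, Tlr3 by 1.03, Ifngr2 by 0.89, Tmem173 (STING) by 0.60 and Mb21d1 (cGAS) by 0.68, while the signalling kinase Jak1 fell by 0.94. Of 16 MHC class I genes 7 rose and 3 fell, and of 15 MHC class II genes 3 rose and 1 fell. Of 12 glucocorticoid-responsive genes 2 rose and 4 fell, with Fkbp5 at 0.73 and the glucocorticoid receptor Nr3c1 at -0.94. Of 13 genes of efferocytosis, the uptake of dead cells, 4 rose and 4 fell, the receptor Axl (0.73) and the integrin Itgb5 (1.12) among the rises.

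Adrb1 fell by 1.91 on the log2 scale (SE 0.28, edgeR adjusted p = 0.00528), from 4.22, 3.77, 3.27 and 4.59 CPM to 0.722, 1.02, 0.891 and 1.77 CPM, with no overlap. Of 8 plasma cell genes 4 fell and 2 rose (median -0.40): Tnfrsf17 fell by 2.13, Irf4 (-1.72), Mzb1 (-1.30) and Prdm1 (-0.56) fell too, and Sdc1 (1.695) and Xbp1 (0.76) rose. Of 8 tested genes of mast cells and basophils 3 fell in the sums and 5 did not pass (median -1.05), where 22.4% of all genes tested fell. Those that fell were Gata2 (-1.99), Hdc (-1.82) and Ms4a2 (-1.48). Hdc was also among the leading genes of a neutrophil-like cluster.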
